A study of Homo sapiens with 5 samples.

Results

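The chaperone genes named HSPA, HSPB, HSPD, HSPE, HSPH, HSP90, DNAJA, DNAJB and DNAJC were followed across the culture states of the human embryonic stem cell line H9. Members were taken by gene symbol, leaving out DNAJC15 and symbols that end in P or in P and a digit, which removes HSP90AB4P, HSP90B2P, HSPBP1 and HSPBAP1. This gave 73 of the 26506 genes in the deposited table. They comprise 8 genes named as small heat shock genes, 16 of the HSP70 superfamily (HSPH1 included), 3 HSP90 genes, the mitochondrial chaperonin pair HSPD1 and HSPE1, and 44 DNAJ genes.

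Messenger RNA was sequenced in 5 libraries. B3GALT5-KO cells (genotype B3GALT5-/-) were cultured in 2iLAF, and the label records them as naive. Wild-type (WT) cells were cultured in 5iLAF (labelled naive) and in 2iLAF (labelled primed-naive, the control of the design). B3GALT5-KO and WT cells were also cultured in basal medium, both labelled primed. The media 5iLAF and 2iLAF pair inhibitors of kinases with growth factors, and are used to reset primed cells to a naive identity, which resembles that of the pre-implantation epiblast. B3GALT5 encodes a galactosyltransferase of glycosphingolipid synthesis. Its transcript stood at 1.17 TPM in B3GALT5-KO 2iLAF, 2.08 in WT 5iLAF, 5.13 in WT 2iLAF, 5.98 in B3GALT5-KO basal and 9.31 in WT basal, and the edited part of the gene is not given in the sources used here, so these levels do not check the knockout. Whether the knockout line is 1 clone is likewise not given in the sources used here.

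Each group holds 1 library. No difference below has a replicate check, no error between cultures can be given and no test was possible. Levels are in TPM, a share of transcripts scaled for transcript length, which can therefore be compared between genes. Differences are log2 ratios of (TPM + 1), in which the added 1 shrinks the ratios of weakly expressed genes. A gene counts as higher or lower where that ratio is at least 1 in size. Sequencing depth is unknown, since no counts were given. Each library held from 13729 to 14156 genes with 1 TPM or more. All 6 stem cell markers looked for, POU5F1 and SOX2 among them, were above 1 TPM in every library, and summed to 2570 TPM in B3GALT5-KO 2iLAF, 3140 in WT 5iLAF, 3170 in WT 2iLAF, 5130 in B3GALT5-KO basal and 5390 in WT basal. POU5F1 alone held 1601, 1944, 1099, 3098 and 3350 TPM of these. POU5F1, TDGF1 and DPPA4 were each highest in a basal library. SOX2, LIN28A and SALL4 were highest in WT 2iLAF, at 324, 1233 and 167 TPM, with 161, 632 and 67.2 in WT basal.

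Genes reaching 1 TPM in at least 1 library were counted, which retained 63 of the 73 members, and 58 of these were at or above 1 TPM in all 5 libraries. The 10 below that level were DNAJB3, DNAJB7 and DNAJB8, listed at 0 throughout, DNAJB13, DNAJC22, DNAJC5B, DNAJC5G, HSPA7, HSPB3 and HSPB9. HSPA6 and HSPB7 passed through the B3GALT5-KO 2iLAF library alone, so their counts as higher there follow from the filter.

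Chaperones bind proteins that are unfolded or partly folded. HSP70 proteins clasp exposed hydrophobic stretches in cycles of ATP hydrolysis, DNAJ proteins deliver the clients and trigger hydrolysis through their J domain, and HSP90 acts later on kinases, receptors and other near-native clients. Small heat shock proteins hold unfolding clients in assemblies without using ATP, and the HSPD1 and HSPE1 proteins form the folding chamber of the mitochondrial matrix. Many cytosolic members are induced by the heat shock factor HSF1, whereas chaperones of the endoplasmic reticulum answer to the unfolded protein response.

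The 73 genes together took 1.27% of all TPM in B3GALT5-KO 2iLAF, 1.17% in WT 5iLAF, 0.888% in WT 2iLAF, 1.32% in B3GALT5-KO basal and 1.41% in WT basal. WT 2iLAF was thus the library with the smallest chaperone share. The groups followed different orders of libraries. The small heat shock sum, most of it HSPB1, was far apart between the 2 libraries labelled naive and the other 3, the HSP70 and DNAJ sums were lowest in WT 2iLAF, and the HSP90 and chaperonin sums separated both basal libraries from the other media.

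**Figure D1:**
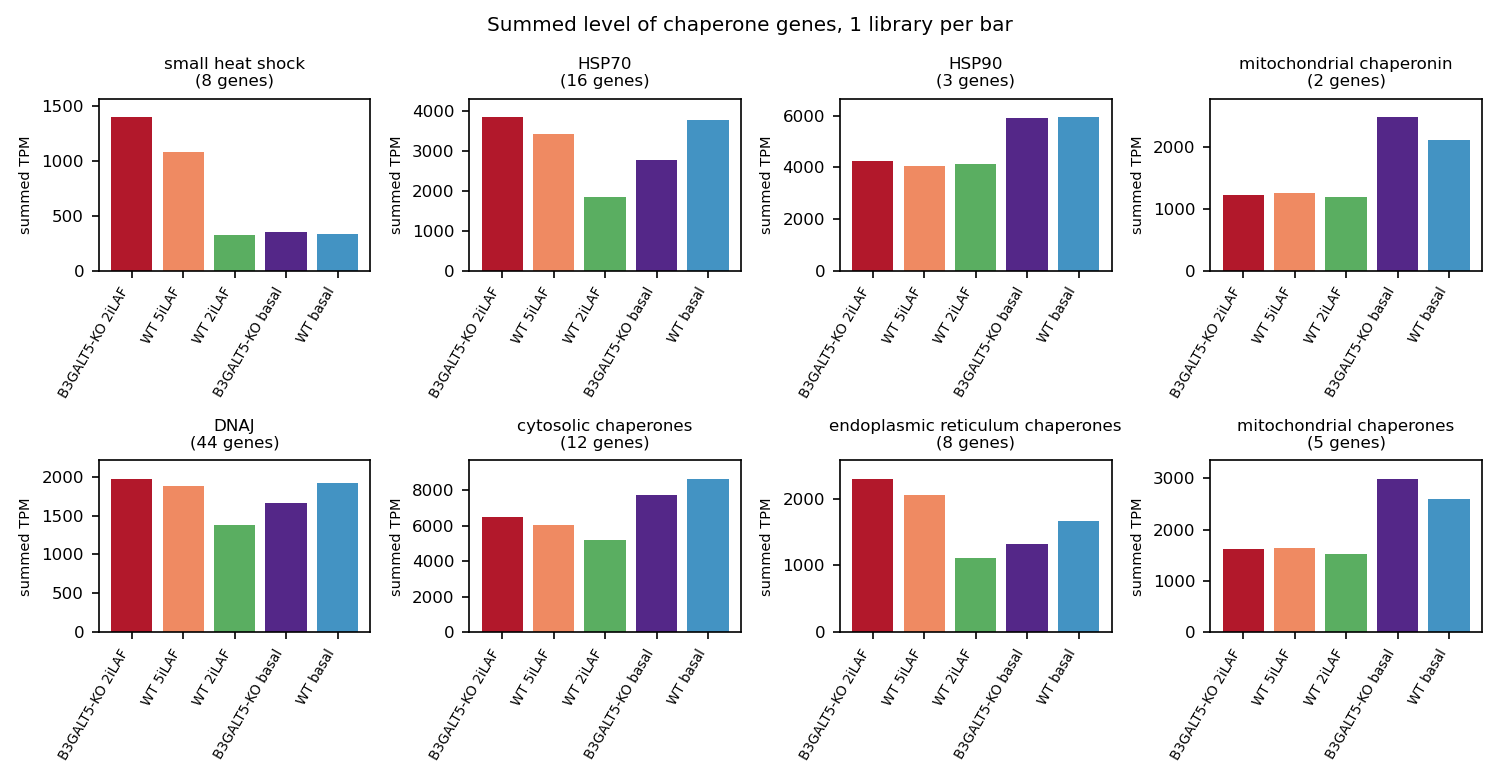
Bars give the summed TPM of the genes of each group and of genes sorted by compartment, a panel each, 1 library per bar, all axes from 0. Small heat shock genes summed to 1398 TPM in B3GALT5-KO 2iLAF and 1085 in WT 5iLAF against 326 to 354 in the other 3 libraries, and the mitochondrial chaperonin pair to 1186 to 1255 TPM in 2iLAF and 5iLAF against 2114 and 2474 in basal medium.

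Loss of B3GALT5 in basal medium was accompanied by few differences among these genes. Of the 63 retained members none was higher and 2 were lower in B3GALT5-KO basal over WT basal, DNAJA4 and HSPA1A. Over all 15761 retained genes 0.704% were higher and 1.05% lower by the same rule. The median over members was -0.09 beside -0.06 over all genes. HSPA1A was close to the limit at -1.05, and was inside it under both other scalings tried, in FPKM, and at -0.81 for the sum of HSPA1A and its near-identical copy HSPA1B. The next largest were HSPB2 at -0.95, a gene at 0.28 TPM in B3GALT5-KO basal and 1.48 in WT basal, and HSPA5 at -0.72. The 7 red blood cell markers, the globin genes among them, summed to 10.6 TPM in B3GALT5-KO basal and 229 TPM in WT basal, and to 221 in B3GALT5-KO 2iLAF, 12.5 in WT 5iLAF and 1.11 in WT 2iLAF. Their part in any difference between these libraries was not tested.

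Medium had larger counts. In WT 5iLAF over WT basal, HSPB1 and HSPB8 were higher and HSPA1B, HSPA12B and DNAJC12 lower, or 2 and 3 of the 63, beside 10.7% higher and 11.4% lower over all genes. The sum of HSPA1A and HSPA1B was at -0.91 there, inside the limit. In WT 2iLAF over WT basal none was higher and 5 were lower, which were HSPA1A, HSPA1B, HSPA8, HSPH1 and HSPA12B, or 7.94% of members beside 7.02% of all genes (4.73% of all genes were higher). All 5 belong to the HSP70 group, of which 15 passed the filter. HSPH1, at -1.14, was inside the limit under both other scalings tried. The members had a median of -0.45 there. Median-ratio scaling set the median of all genes to 0.00 and that of the members to -0.32. In B3GALT5-KO 2iLAF over B3GALT5-KO basal 11 were higher and 3 lower, or 17.5% and 4.76% of members beside 15.9% and 11.8% of all genes. The 11 were DNAJA4, DNAJB11, DNAJB2, DNAJC3, HSPA5, HSPA6, HSPB1, HSPB2, HSPB6, HSPB7 and HSPB8, and the 3 were DNAJC12, HSPA12B and HSPD1. The share of members that were higher was thus close to the background, while 5 of the 6 retained small heat shock genes were among them. Of the 11, HSPB7 and HSPA6 passed the filter through B3GALT5-KO 2iLAF alone, so their counts follow from the filter.

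Within 2iLAF, B3GALT5-KO and WT cells differed in the chaperone genes mainly in 1 direction. In B3GALT5-KO 2iLAF over WT 2iLAF 15 members were higher and 1, DNAJC12, was lower, or 23.8% and 1.59% of members beside 16.6% and 10.8% of all genes. HSPB8, HSPB1 and HSPA8 had log2 ratios of 3.13, 2.21 and 1.33, DNAJB4 1.55, DNAJB11 1.34, HSPA1A 1.34 and HSPA5 1.19. The call of HSPA1A was lost on its sum with HSPA1B, which was at 0.74, with HSPA1B alone at 0.21. DNAJB1 and HSP90B1 stood at the limit, with 1.00 each, and were below it under both other scalings tried and in FPKM. Of the 63 retained members 39 (61.9%) were lowest in WT 2iLAF of the 5 libraries, beside 31.2% of all retained genes. Ties went to the first library in the order B3GALT5-KO 2iLAF, WT 5iLAF, WT 2iLAF, B3GALT5-KO basal and WT basal. HSPB7 and HSPA6, at 0 in both WT 2iLAF and WT basal, are thus among the 39 although tied. After median-ratio scaling those shares were 49.2% and 25.6%. In B3GALT5-KO 2iLAF over WT 5iLAF, the libraries labelled naive, 3 members were higher (HSPB7, HSPB6 and HSPA6) and none lower, beside 4.90% and 1.03% of all genes. HSPB7 and HSPA6 passed the filter through B3GALT5-KO 2iLAF alone. Their counts as higher, here and among the 15 over WT 2iLAF, follow from the filter. The 6 comparisons share libraries, WT basal entering 3 of them and B3GALT5-KO 2iLAF another 3, so they are not independent of each other.

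**Figure D2:**
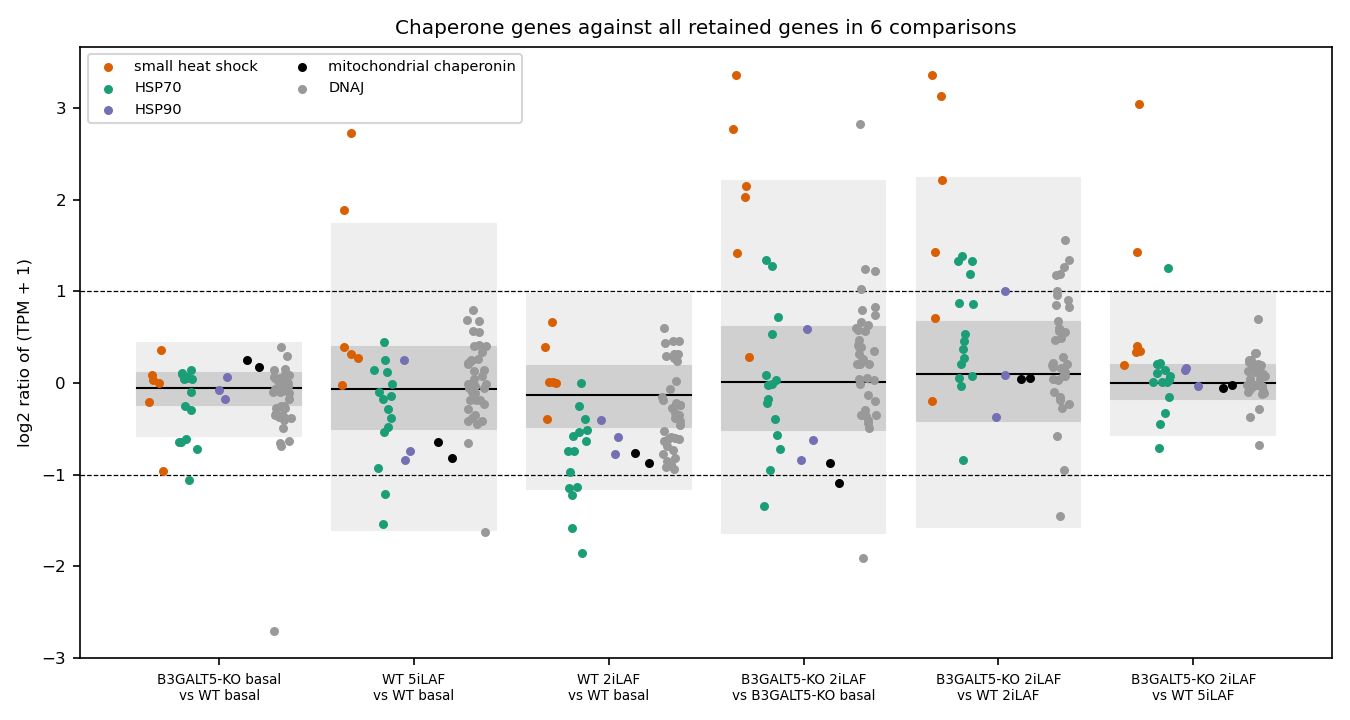
Points are the 63 retained chaperone genes by group in each of 6 comparisons, as log2 ratios of (TPM + 1). Light and dark bands hold the middle 90% and 50% of the 15761 retained genes, the black line is their median, and dashed lines mark a ratio of 1 in size. HSPB1 and HSPB8 lie above the light band in WT 5iLAF over WT basal, where no other chaperone gene does.

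Among the small heat shock genes, HSPB1 and HSPB8 stood apart in both libraries labelled naive. HSPB1, which encodes HSP27, an ATP-independent chaperone that also binds the actin cytoskeleton, was at 1215 TPM in B3GALT5-KO 2iLAF and 955 in WT 5iLAF, and at 261 in WT 2iLAF, 274 in B3GALT5-KO basal and 258 in WT basal. The last 3 levels lay close together, and both libraries labelled naive were well above them. HSPB8, which works with BAG3 to route damaged proteins to autophagy, was at 78.5 TPM in B3GALT5-KO 2iLAF and 59.0 in WT 5iLAF, and at 8.09 in WT 2iLAF, 10.6 in B3GALT5-KO basal and 8.05 in WT basal. Its log2 ratios were 2.77 for B3GALT5-KO 2iLAF over B3GALT5-KO basal, 2.73 for WT 5iLAF over WT basal and 0.01 for WT 2iLAF over WT basal. Those of HSPB1 were 2.15, 1.88 and 0.02 in the same order. HSPB1 was the most abundant of the 8, with between 76.8% and 88.1% of the group's TPM. In bulk RNA, fewer cells of a type and less RNA per cell cannot be told apart.

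The heat shock element bound by HSF1 is built of inverted GAA units. The element and pairs of its units were searched in RefSeq promoter windows (250 bases before to 50 after each start, GRCh38.p14). Windows were found for 63 of the 73 members. The pair GAANNTTC was present in 11 of the 63, HSPB1 and HSPB8 among them, and in 6.77% of all 35116 promoter windows. The pair TTCNNGAA was present in 7 of the 63 and in 7.74% of all windows, and both pairs read the same on either strand. The promoters of HSPB1 and HSPB8 are shown because these 2 genes carry the group's difference between libraries, with each pair match in capitals. Counted from the start of the gene, the HSPB1 match begins at position -182, and those of HSPB8 at -88 and 5. HSPB1 lies at chr7:76302423-76302722 on the plus strand and HSPB8 at chr12:119178681-119178980 on the plus strand.
HSPB1: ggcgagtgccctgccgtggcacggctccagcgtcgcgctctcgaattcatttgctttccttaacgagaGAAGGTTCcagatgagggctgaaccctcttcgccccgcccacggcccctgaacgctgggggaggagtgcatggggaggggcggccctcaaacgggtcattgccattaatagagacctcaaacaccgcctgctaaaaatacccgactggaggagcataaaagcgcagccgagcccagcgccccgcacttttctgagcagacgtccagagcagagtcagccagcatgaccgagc
HSPB8: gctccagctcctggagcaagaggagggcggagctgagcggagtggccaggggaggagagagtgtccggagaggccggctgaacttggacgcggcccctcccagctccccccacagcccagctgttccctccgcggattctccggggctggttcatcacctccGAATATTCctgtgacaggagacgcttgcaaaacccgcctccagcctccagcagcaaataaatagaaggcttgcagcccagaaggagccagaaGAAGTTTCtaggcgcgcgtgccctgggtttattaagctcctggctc
A match of these letters is a description of the sequence and does not show binding.

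HSPB6, HSPB7 and HSPB3 were highest in B3GALT5-KO 2iLAF, as was CRYAB, whereas HSPB2 was highest in WT 2iLAF. HSPB7 passed the filter through B3GALT5-KO 2iLAF alone, and HSPB3 did not pass it. HSPB6, which encodes HSP20 of smooth and cardiac muscle, was at 9.66 TPM in B3GALT5-KO 2iLAF, 2.96 in WT 5iLAF, 2.96 in WT 2iLAF, 1.61 in B3GALT5-KO basal and 2.01 in WT basal. HSPB7, a cardiovascular small heat shock gene, was at 9.28 TPM in B3GALT5-KO 2iLAF and 0.25 in WT 5iLAF and was listed at 0 in the other 3 libraries. HSPB3, known from skeletal muscle, was at 0.73 TPM in B3GALT5-KO 2iLAF and listed at 0 elsewhere. CRYAB, the small heat shock gene of lens and muscle that does not carry an HSPB symbol, was at 37.8 TPM in B3GALT5-KO 2iLAF, 15.5 in WT 5iLAF, 0.73 in WT 2iLAF, 1.24 in B3GALT5-KO basal and 2.60 in WT basal. HSPB2 stands beside CRYAB in the genome and showed another order, at 2.43, 1.99, 2.93, 0.28 and 1.48 TPM in the same libraries. Muscle markers differed between the libraries too. The 9 cardiac and skeletal muscle markers summed to 2380 TPM in B3GALT5-KO 2iLAF, 1140 in WT 5iLAF, 175 in WT 2iLAF, 34.7 in B3GALT5-KO basal and 21.8 in WT basal, and at least 1 TPM was reached by 7, 6, 6, 5 and 5 of them. MYH6 and MYH7, which encode the cardiac myosin heavy chains, stayed between 0 and 0.07 TPM in all libraries. The 7 fibroblast markers summed to 5470, 1840, 201, 845 and 787 TPM in the same libraries. THY1 alone held 37.65, 14.33, 65.7, 754 and 716 TPM of these, and so made up most of both basal sums. The 6 smooth muscle markers summed to 3550, 2640, 594, 262 and 90.6 TPM, with MYH11, the smooth muscle myosin, at most at 0.99 TPM. Their part in the small heat shock levels was not tested.

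HSPB11 and HSPB9 were the remaining genes of the group. HSPB11, which encodes the ciliary transport protein IFT25 and is a small heat shock gene mainly by name, was at 82.5 TPM in B3GALT5-KO 2iLAF, 65.0 in WT 5iLAF, 50.2 in WT 2iLAF, 67.7 in B3GALT5-KO basal and 66.1 in WT basal, and was not counted in any of the 6 comparisons. HSPB9, a testis gene, did not exceed 0.67 TPM.

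**Figure D3:**
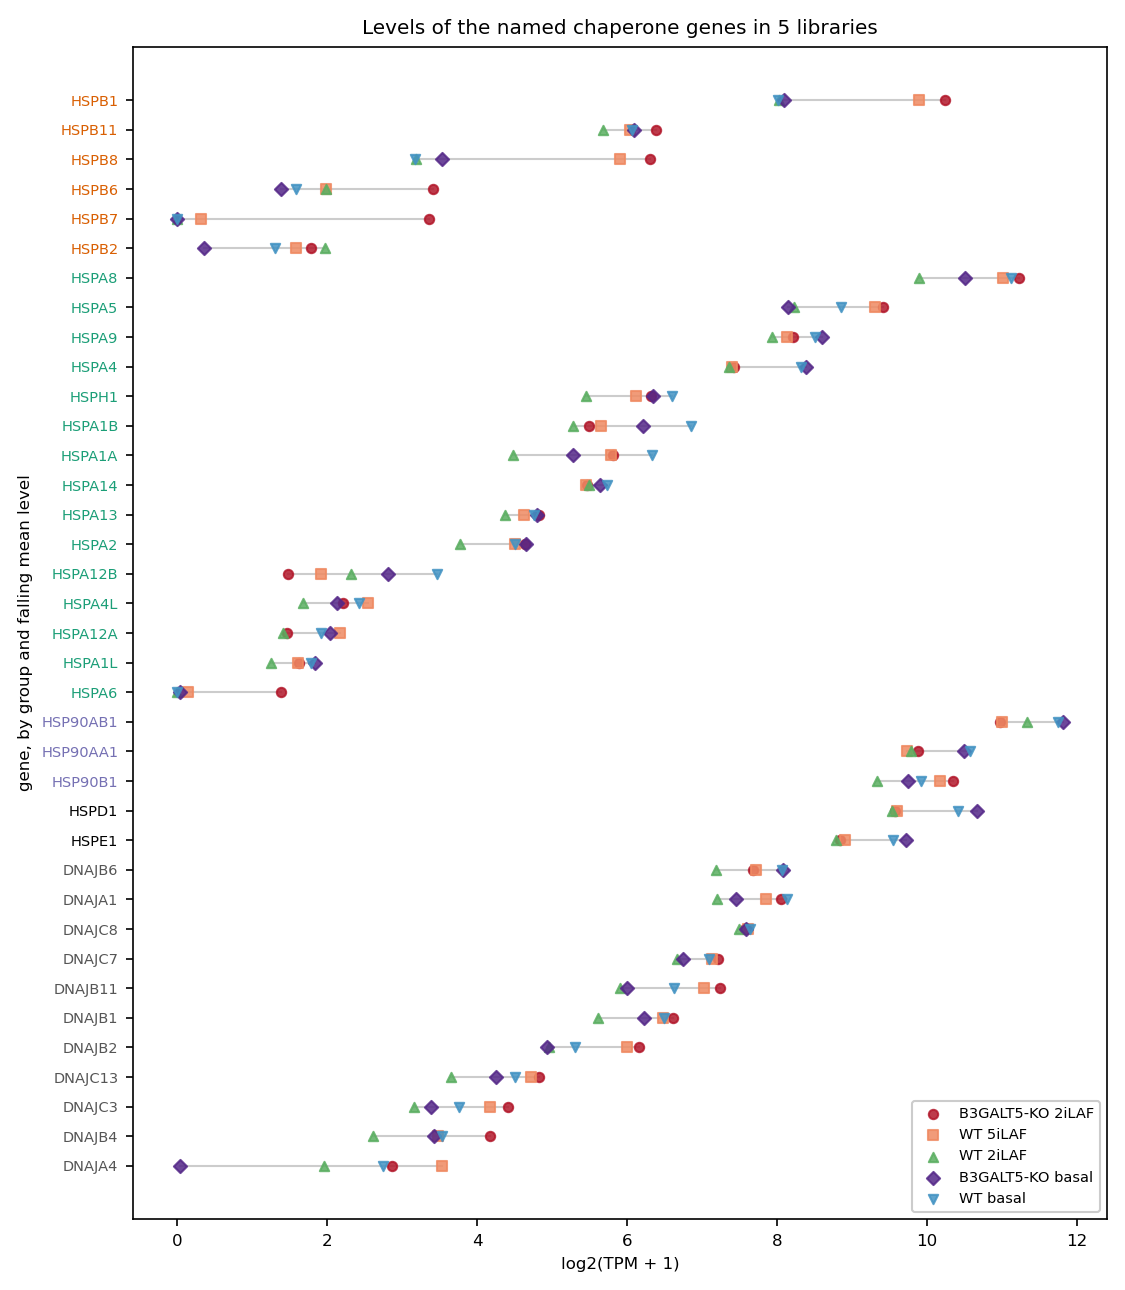
Each row is a gene and each symbol a library, on log2(TPM + 1), with grey lines from the lowest to the highest library. The rows of HSPB1, HSPB8 and HSPB7 are the widest of the small heat shock group. In the HSP70 group the WT 2iLAF symbol is leftmost for most genes, HSPA8, HSPA1A, HSPA1B and HSPH1 among them.

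HSPA8, HSPA1A, HSPA1B and HSPH1 were lowest in WT 2iLAF. So were HSPA2, HSPA4, HSPA4L, HSPA9, HSPA12A, HSPA13 and HSPA1L, so most of the retained HSP70 genes shared this. HSPA8, the constitutive HSP70 and the most abundant HSP70 gene of every library, was at 2412 TPM in B3GALT5-KO 2iLAF, 2074 in WT 5iLAF, 956 in WT 2iLAF, 1461 in B3GALT5-KO basal and 2226 in WT basal. B3GALT5-KO 2iLAF, WT 5iLAF and WT basal thus lay close to each other, with B3GALT5-KO basal below them and WT 2iLAF lowest. Its log2 ratio was -1.22 for WT 2iLAF over WT basal and 1.33 for B3GALT5-KO 2iLAF over WT 2iLAF. The stress-inducible pair HSPA1A and HSPA1B is near-identical in sequence, so the split of reads between them is uncertain and their sum is firmer. The sum was 99.2 TPM in B3GALT5-KO 2iLAF, 104 in WT 5iLAF, 59.2 in WT 2iLAF, 111 in B3GALT5-KO basal and 195 in WT basal. WT basal held the highest sum and WT 2iLAF the lowest, and the B3GALT5-KO basal sum was 0.571 times that of WT basal. HSPA1A alone stood at 37.8 TPM in B3GALT5-KO basal, with 79.5 TPM for WT basal, a log2 ratio of -1.05. The log2 ratio of the sum was -1.72 for WT 2iLAF over WT basal, -0.91 for WT 5iLAF over WT basal, -0.81 for B3GALT5-KO basal over WT basal, -0.16 for B3GALT5-KO 2iLAF over B3GALT5-KO basal and 0.74 for B3GALT5-KO 2iLAF over WT 2iLAF. Of these only the first was past the limit of 1.

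The HSP110 gene HSPH1, whose product exchanges nucleotide on HSP70, was likewise lowest in WT 2iLAF and highest in WT basal. It was at 79.2 TPM in B3GALT5-KO 2iLAF, 68.35 in WT 5iLAF, 43.0 in WT 2iLAF, 80.2 in B3GALT5-KO basal and 95.8 in WT basal. HSPA4, a related HSP110 gene, was lowest in WT 2iLAF too, but by little. It was at 172, 168 and 163 TPM in B3GALT5-KO 2iLAF, WT 5iLAF and WT 2iLAF. In B3GALT5-KO basal and WT basal it was at 334 and 319.7 TPM. All 3 libraries outside basal medium were nearly level for HSPA4, as were both basal libraries. The 12 cytosolic chaperones of the plot of summed levels (HSP90AA1, HSP90AB1, HSPA8, HSPA1A, HSPA1B, HSPA4, HSPH1, DNAJA1, DNAJA2, DNAJB1, DNAJB6 and DNAJC7) were picked with these results known, so their sums only describe these genes.

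A full element of 3 units (GAA, 2 bases, TTC, 2 bases, GAA), searched on both strands, occurred in 4 of the 63 member windows and in 0.490% of all windows. The 4 genes were HSPA8, with 2 matches, DNAJA1, DNAJB6 and HSPA6. Each full match contains 1 pair of either kind, so the counts overlap. The HSPA8 window (chr11:123062087-123062386, minus strand) is shown whole, and 53 bases around the match are shown for DNAJA1 (chr9:33025256-33025308, plus strand), DNAJB6 (chr7:157336853-157336905, plus strand) and HSPA6 (chr1:161524446-161524498, plus strand), so that the spacing of the units in capitals can be compared.
HSPA8: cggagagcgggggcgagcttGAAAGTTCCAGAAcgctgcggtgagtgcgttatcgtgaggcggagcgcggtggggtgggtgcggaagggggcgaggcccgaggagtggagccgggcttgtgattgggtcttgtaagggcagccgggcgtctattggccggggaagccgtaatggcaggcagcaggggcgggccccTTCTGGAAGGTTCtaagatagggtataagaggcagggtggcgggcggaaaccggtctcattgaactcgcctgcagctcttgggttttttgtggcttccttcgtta
DNAJA1: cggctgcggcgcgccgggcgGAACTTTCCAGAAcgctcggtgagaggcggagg
DNAJB6: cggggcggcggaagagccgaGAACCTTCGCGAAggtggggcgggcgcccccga
HSPA6: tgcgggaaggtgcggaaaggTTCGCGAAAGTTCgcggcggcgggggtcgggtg
The HSPA8 matches begin at positions -230 and -55, that of DNAJB6 at -131, that of HSPA6 at -74 and that of DNAJA1 at 4. Of the genes that carry these letters, HSPA8, DNAJA1 and DNAJB6 were lowest in WT 2iLAF, as were 61.9% of all retained members with ties counted. A link between the letters and the levels was not tested. HSPA6, the strictly heat-inducible HSP70 gene, was at 1.62 TPM in B3GALT5-KO 2iLAF, 0.10 in WT 5iLAF, 0.03 in B3GALT5-KO basal and listed at 0 in WT 2iLAF and WT basal. The 8 granulocyte markers, S100A8 and S100A9 among them, summed to 1040 TPM in B3GALT5-KO 2iLAF and to between 0.84 and 1.83 TPM in the other libraries, and their part in the HSPA6 level was not tested. HSPA1A and HSPA1B held the pair GAANNTTC in their windows and HSPA1L shares part of its window with HSPA1A.

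Chaperones of the endoplasmic reticulum formed another set of values. HSPA5, which encodes BiP, the HSP70 of that compartment, was at 685 TPM in B3GALT5-KO 2iLAF, 634 in WT 5iLAF, 300.3 in WT 2iLAF, 282 in B3GALT5-KO basal and 464 in WT basal. HSP90B1, which encodes its HSP90 partner GRP94, was at 1300.4 TPM in B3GALT5-KO 2iLAF, 1157 in WT 5iLAF, 648 in WT 2iLAF, 863 in B3GALT5-KO basal and 972 in WT basal. Both libraries labelled naive lay above the other 3 for each of these genes. DNAJB11, the BiP co-chaperone ERdj3, had the same division, at 150.1 and 130.2 TPM in B3GALT5-KO 2iLAF and WT 5iLAF, and 58.8, 62.9 and 98.3 in WT 2iLAF, B3GALT5-KO basal and WT basal. DNAJC3, a BiP co-chaperone that restrains the eIF2alpha kinase PERK, was at 20.3 and 17.0 TPM in B3GALT5-KO 2iLAF and WT 5iLAF, and at 7.90, 9.45 and 12.6 TPM in WT 2iLAF, B3GALT5-KO basal and WT basal.

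Of 8 such genes (HSPA5, HSP90B1, HSPA13, DNAJB9, DNAJB11, DNAJC1, DNAJC3 and DNAJC10, chosen with these results known) 3 were counted as higher in B3GALT5-KO 2iLAF over B3GALT5-KO basal, beside 15.9% of all genes. Their log2 ratios were 1.28 for HSPA5, 1.24 for DNAJB11 and 1.03 for DNAJC3. With a pseudocount of 5 in place of 1, that of DNAJC3 was 0.81, inside the limit. None of the 8 was counted in WT 5iLAF over WT basal (10.7% of all genes higher, 11.4% lower), where HSPA5 was at 0.45. None was counted in WT 2iLAF over WT basal (4.73% of all genes higher, 7.02% lower), where HSPA5 was at -0.63. The set's sum in B3GALT5-KO basal was 0.798 times that in WT basal, with HSPA5 at a log2 ratio of -0.72 and DNAJB11 at -0.64. Not all of the 8 lay higher in both libraries labelled naive. DNAJC10 was at 53.35 TPM in WT 5iLAF and 56.98 in WT basal, and HSPA13 at 23.6 and 26.1 TPM. SIL1, the nucleotide exchange factor of BiP, was at 27.3 and 19.99 TPM in B3GALT5-KO 2iLAF and WT 5iLAF and at 7.51, 9.34 and 8.38 TPM in WT 2iLAF, B3GALT5-KO basal and WT basal.

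The endoplasmic reticulum stress element (CCAAT, 9 bases, CCACG), the site through which ATF6 acts on BiP-type promoters, was searched on both strands after these values were seen. It was found in 2 of the 63 member windows, those of HSPA5 and HSP90B1, and in 27 of all 35116 windows (0.0769%). The windows are shown with the matches in capitals, HSPA5 at chr9:125241294-125241593 on the minus strand and HSP90B1 at chr12:103930160-103930459 on the plus strand.
HSPA5: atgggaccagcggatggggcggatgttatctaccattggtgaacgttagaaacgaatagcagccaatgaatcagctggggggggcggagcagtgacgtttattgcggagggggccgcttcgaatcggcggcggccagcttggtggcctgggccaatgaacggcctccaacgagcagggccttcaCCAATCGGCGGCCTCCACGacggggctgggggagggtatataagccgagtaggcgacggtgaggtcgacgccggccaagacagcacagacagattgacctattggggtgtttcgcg
HSP90B1: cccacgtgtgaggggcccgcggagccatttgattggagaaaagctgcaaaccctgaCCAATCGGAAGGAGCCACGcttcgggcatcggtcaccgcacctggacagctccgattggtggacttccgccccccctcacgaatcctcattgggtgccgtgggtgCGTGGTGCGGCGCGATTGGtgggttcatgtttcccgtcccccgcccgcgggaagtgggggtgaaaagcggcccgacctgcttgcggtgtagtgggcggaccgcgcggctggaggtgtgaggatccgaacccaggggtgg
HSPA5 carries 1 match, at position -66. HSP90B1 carries 2, at -194 and, on the opposite strand, at -89.

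Cytosolic HSP90 genes separated basal medium from the other media. HSP90AB1, the constitutive isoform and the most abundant member of the whole set in all libraries but B3GALT5-KO 2iLAF and WT 5iLAF, was at 2010.5 TPM in B3GALT5-KO 2iLAF, 2051 in WT 5iLAF, 2598 in WT 2iLAF, 3604 in B3GALT5-KO basal and 3440.0 in WT basal. HSP90AA1, the inducible isoform, was at 940.2, 851, 887, 1444 and 1522 TPM in the same order. The genes were lower in each of the 3 libraries outside basal medium than in either basal library, but neither passed a log2 ratio of 1, the largest being -0.84 for HSP90AA1 in WT 5iLAF over WT basal and -0.84 for HSP90AB1 in B3GALT5-KO 2iLAF over B3GALT5-KO basal. HSP90AA1 stood at between 0.341 and 0.468 times the level of HSP90AB1 in the 5 libraries. With HSP90B1 included, the HSP90 genes summed to 4251, 4058 and 4133 TPM outside basal medium (B3GALT5-KO 2iLAF, WT 5iLAF and WT 2iLAF) and to 5911 and 5934 TPM in B3GALT5-KO basal and WT basal. These sums were level within each set of media although HSP90B1 took 30.6%, 28.5% and 15.7% of them in B3GALT5-KO 2iLAF, WT 5iLAF and WT 2iLAF.

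Mitochondrial chaperonins showed the same division. HSPD1, which encodes HSP60, was at 766 TPM in B3GALT5-KO 2iLAF, 775 in WT 5iLAF, 744 in WT 2iLAF, 1628 in B3GALT5-KO basal and 1365 in WT basal. HSPE1, which encodes its lid HSP10, was at 460.1, 479, 442, 846 and 749 TPM in the same libraries. The 3 libraries outside basal medium differed little from each other for either gene, and all lay below both basal libraries. HSPD1 was counted as lower in B3GALT5-KO 2iLAF over B3GALT5-KO basal, with a log2 ratio of -1.09, and HSPE1 had -0.88 there. The genes lie head to head on chromosome 2 with RefSeq starts 105 bases apart, so their windows overlap, and HSPD1 stood at between 1.62 and 1.92 times the level of HSPE1 in every library. HSPA9, the HSP70 of the mitochondrial matrix, had smaller differences, at 295, 280.1, 244, 389 and 365 TPM in B3GALT5-KO 2iLAF, WT 5iLAF, WT 2iLAF, B3GALT5-KO basal and WT basal. TRAP1, the mitochondrial HSP90, was at 109.7, 121, 166, 229.5 and 215 TPM in the same libraries, with a log2 ratio of -1.06 for B3GALT5-KO 2iLAF over B3GALT5-KO basal. TRAP1 was chosen after its values were seen.

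The remaining HSP70 genes were low or differed little. HSPA12B, a distant HSP70 relative of endothelium, was at 1.79 TPM in B3GALT5-KO 2iLAF, 2.79 in WT 5iLAF, 3.98 in WT 2iLAF, 6.05 in B3GALT5-KO basal and 10.04 in WT basal. It was the 1 HSP70 gene counted as lower in all 3 comparisons with basal medium, with log2 ratios of -1.34, -1.54 and -1.15 for B3GALT5-KO 2iLAF, WT 5iLAF and WT 2iLAF. With a pseudocount of 5 in place of 1, none of these 3 HSPA12B ratios passed the limit, at -0.70, -0.95 and -0.74. Its relative HSPA12A was at 1.77, 3.51, 1.66, 3.09 and 2.79 TPM in the same order of libraries. HSPA2, best known from the testis, was at 24.0, 21.6, 12.6, 24.2 and 21.8 TPM, again lowest in WT 2iLAF. HSPA14, which assists nascent chains at the ribosome, was at 43.2, 42.8, 44.1, 48.8 and 52.4 TPM, and HSPA13, a microsomal HSP70, at 27.5, 23.6, 19.7, 26.9 and 26.1 TPM. HSPA4L and HSPA1L did not exceed 4.84 and 2.58 TPM, and HSPA1L is close enough in sequence to HSPA1A and HSPA1B that its level is uncertain.

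No DNAJ gene was above 16.3% of the group's TPM in any library. The 3 highest were DNAJA1, DNAJB6 and DNAJC8 in every library. DNAJA1, a type I co-chaperone of HSPA8, was at 264 TPM in B3GALT5-KO 2iLAF, 230.2 in WT 5iLAF, 146 in WT 2iLAF, 174 in B3GALT5-KO basal and 281 in WT basal. DNAJB6, a suppressor of protein aggregation, was at 204, 209, 145, 270.4 and 268 TPM in the same order. DNAJB1, the type II partner of inducible HSP70, was at 97.3, 88.7, 48.15, 73.8 and 89.4 TPM. All 3 were lowest in WT 2iLAF. By contrast DNAJC8, a J protein of the spliceosome, ranged only from 179 TPM in WT 2iLAF to 199 in WT basal. DNAJC7, which hands clients between HSP70 and HSP90, was at 147, 139, 101, 106 and 135 TPM.

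DNAJA4 held the widest range of the DNAJ genes. It was at 6.29 TPM in B3GALT5-KO 2iLAF, 10.6 in WT 5iLAF, 2.90 in WT 2iLAF, 0.03 in B3GALT5-KO basal and 5.69 in WT basal, so that the transcript was near 0 in B3GALT5-KO basal alone. Its log2 ratio was -2.70 for B3GALT5-KO basal over WT basal and 2.82 for B3GALT5-KO 2iLAF over B3GALT5-KO basal. DNAJB2, a J protein that feeds ubiquitinated clients to the proteasome, was at 70.4 and 62.8 TPM in B3GALT5-KO 2iLAF and WT 5iLAF and at 30.2, 29.6 and 38.6 TPM in WT 2iLAF, B3GALT5-KO basal and WT basal. DNAJB4 was at 17.0 TPM in B3GALT5-KO 2iLAF, 10.1 in WT 5iLAF, 5.14 in WT 2iLAF, 9.79 in B3GALT5-KO basal and 10.6 in WT basal. DNAJC13, a J protein of endosome sorting, was at 27.5, 25.25, 11.6, 18.1 and 21.8 TPM. DNAJC12, a co-chaperone of the aromatic amino acid hydroxylases, chosen after its values were seen, was at 0.36 TPM in B3GALT5-KO 2iLAF and 0.66 in WT 5iLAF against 2.73 in WT 2iLAF, 4.1 in B3GALT5-KO basal and 4.11 in WT basal. Of the 44 DNAJ genes 37 passed the filter, and 29 of those 37 (78.4%) were past the size rule in none of the 6 comparisons, beside 57.5% of all retained genes.

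HSF1 itself was near level, at 69.1 TPM in B3GALT5-KO 2iLAF, 73.1 in WT 5iLAF, 77.9 in WT 2iLAF, 69.6 in B3GALT5-KO basal and 73.9 in WT basal, a gene named after its values were seen. Its transcript level does not measure the activity of the protein. In the list of heat shock factors and their regulators, 1 of 5 retained genes, HSBP1L1 (at most 6.07 TPM, named after its values were seen), was counted as higher in each comparison of another medium with basal medium and none as lower. Over all genes 15.9% were higher in B3GALT5-KO 2iLAF over B3GALT5-KO basal, 10.7% in WT 5iLAF over WT basal and 4.73% in WT 2iLAF over WT basal. Among 34 retained co-chaperones of HSP70 and HSP90, 5 were higher and 1 lower in B3GALT5-KO 2iLAF over WT 2iLAF, beside 16.6% and 10.8% of all genes. In B3GALT5-KO 2iLAF over B3GALT5-KO basal 3 were higher and 2 lower, beside 15.9% and 11.8%. In WT 5iLAF over WT basal 2 were higher and 2 lower, beside 10.7% and 11.4%, and in WT 2iLAF over WT basal none was higher and 1 lower, beside 4.73% and 7.02%. CHORDC1, an HSP90 co-chaperone, was at 37.4 TPM in B3GALT5-KO 2iLAF, 29.4 in WT 5iLAF, 10.7 in WT 2iLAF, 61.8 in B3GALT5-KO basal and 68.4 in WT basal, a log2 ratio of -2.57 for WT 2iLAF over WT basal. BAG3, the HSPB8 partner, was at 51.3, 41.6, 12.2, 21.35 and 23.4 TPM, and BAG2, which inhibits the ubiquitin ligase STUB1, at 62.3, 56.7, 14.4, 28.2 and 20.7 TPM in the same order. Both BAG genes thus lay above the other libraries in the 2 labelled naive and lowest in WT 2iLAF. No gene of the 8 retained TRiC chaperonin subunits or the 6 prefoldin subunits was counted in any of the 6 comparisons, in which 57.5% of all retained genes were likewise never counted. The TRiC median was -0.21 for B3GALT5-KO 2iLAF over B3GALT5-KO basal, beside 0.02 over all genes. It was -0.21 for WT 5iLAF over WT basal, beside -0.06, and -0.28 for WT 2iLAF over WT basal, beside -0.13.

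The difference between media ran in opposite directions in the 2 genotypes for a part of the genes. In 25 members the ratio to basal medium was above 0 in B3GALT5-KO and below 0 in WT cells, and in 2 it was below 0 in B3GALT5-KO and above 0 in WT cells. The first kind made up 39.7% of retained members and 26.9% of all retained genes, and 38.1% and 21.1% after median-ratio scaling. The share of all genes of the second kind was not computed, so the 2 members have no background. HSPA8 had 0.72 in B3GALT5-KO and -1.22 in WT cells, HSPA5 1.28 and -0.63, and DNAJB11 1.24 and -0.73. HSPA4, HSPD1, HSPE1 and HSP90AA1 were below 0 in both genotypes, with -0.95, -1.09, -0.88 and -0.62 in B3GALT5-KO and -0.97, -0.88, -0.76 and -0.78 in WT cells. The labels give these 2iLAF libraries different states, naive for B3GALT5-KO and primed-naive for WT, so genotype and state cannot be told apart.

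**Figure D4:**
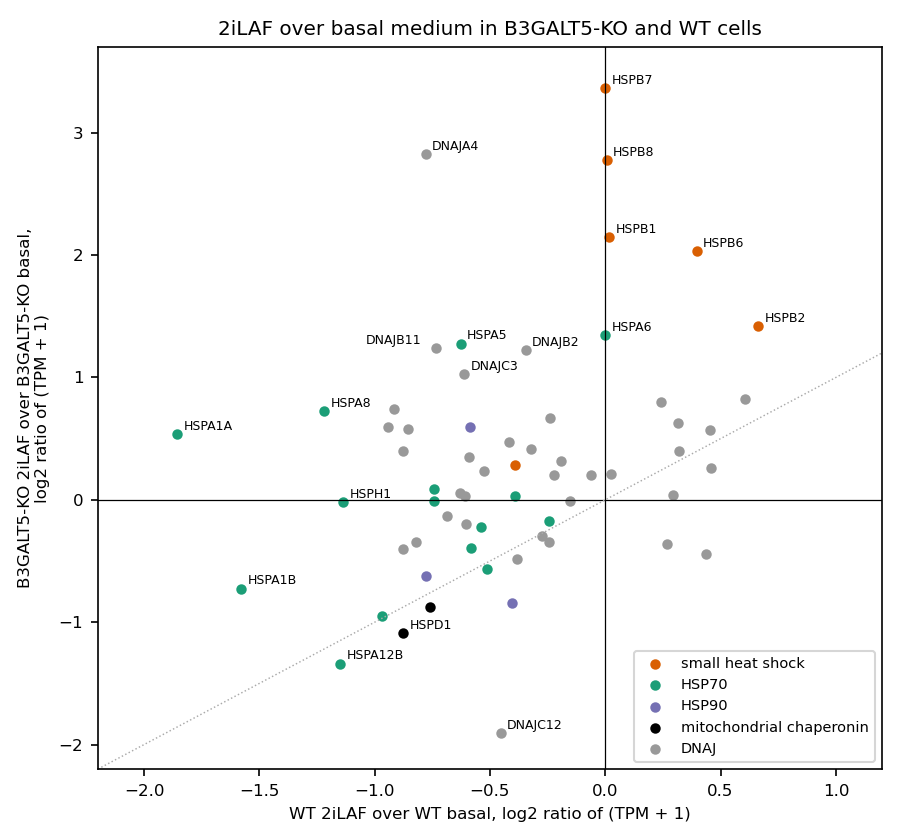
Each point is 1 of the 63 retained chaperone genes, with its log2 ratio of (TPM + 1), 2iLAF over basal medium, in B3GALT5-KO cells on the vertical axis and in WT cells on the horizontal axis. The dotted line marks equal ratios, and genes counted in either comparison are named. HSPB1 and HSPB8 lie on the vertical zero line at 2.15 and 2.77, and HSPA8 lies left of it and above the horizontal one. HSPA1A lies there too, but the sum of HSPA1A and HSPA1B was below 0 in both genotypes, at -0.16 in B3GALT5-KO and -1.72 in WT cells.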

How the data were processed

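Poly(A)-selected RNA of 5 H9 libraries was sequenced after a stranded TruSeq preparation, per the labels' protocols. The submitters' processing notes name Trimmomatic 0.39, Bowtie2 2.3.4.1, RSEM 1.2.28 and hg19; neither annotation nor strand setting is given in the sources used here. TPM and FPKM per gene and library were deposited by the authors, per the file headers. RSEM shares out ambiguous reads by estimation, so near-identical genes (HSPA1A, HSPA1B and HSPA1L; HSPA6 and HSPA7) are uncertain singly, as are overlapping genes such as HSPE1 and HSPE1-MOB4. Deposited values held no counts, and among genes between 0.15 and 0.6 FPKM in 2 libraries at most 4.83% shared a ratio within 0.05 on the log2 scale, so whole reads could not be read off and depth is unknown.

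Computed here were log2 ratios of (TPM + 1) in 6 comparisons over the 15761 genes reaching 1 TPM in at least 1 library, counted at 1 or more in size, without a test because each group is 1 library. The code was run on simulated data with large planted changes in well expressed genes and an assumed noise. Such a run does not measure the error of these libraries or of calls in weakly expressed genes. Members, lists and compartments were chosen with earlier results of these data known. Named are all retained members outside the DNAJ group, DNAJ genes reaching 10 TPM and past the size rule, the 5 highest DNAJ genes, and up to 4 genes per pathway list that reach 10 TPM and pass the size rule; other genes are marked where named. Alternatives were median-ratio scaling, trimmed-mean scaling, FPKM, a 5 TPM filter, the unfiltered table, and 0.1 or 5 as pseudocount. Promoter sequences came from RefSeq (GRCh38.p14), by symbol; no coordinate was joined to hg19. Python 3.11.15, numpy 2.4.6, pandas 2.3.3 and matplotlib 3.10.9 were used.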

Additional observations from a re-analysis of the deposited data

Results flagged for a closer look

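In 10 named genes the ratio of 2iLAF over basal medium pointed in opposite directions in B3GALT5-KO and WT cells, with a size of at least 0.5 on the log2 scale in each. The difference between the 2 ratios (B3GALT5-KO minus WT) was not tested, since each library is the only one of its group. It was 3.60 for DNAJA4, 2.39 for HSPA1A, 1.97 for DNAJB11, 1.94 for HSPA8 and 1.90 for HSPA5. It was 1.66 for DNAJB4, 1.64 for DNAJC3, 1.54 for DNAJA1, 1.43 for DNAJC13 and 1.18 for HSP90B1. In each of the 10 the ratio in B3GALT5-KO cells was above 0 and that in WT cells below 0. The share of all genes at this size was not computed, so the count of 10 has no background. Without the size limit, this direction held for 39.7% of retained members and 26.9% of all retained genes. Several of the 10 are DNAJ genes named because they passed the size rule in these data, so the count partly follows from that choice. For HSPA1A the opposite directions were lost on its sum with the near-identical HSPA1B, whose ratio was 0.892 in B3GALT5-KO and 0.304 in WT cells, both below 1. The DNAJA4 value rests on its level of 0.03 TPM in B3GALT5-KO basal.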

How the results depend on the processing

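No paired analysis was possible because each group holds 1 library, and for the same reason no library could be left out. The number of members counted was 2 in B3GALT5-KO basal over WT basal, 5 in WT 5iLAF over WT basal, 5 in WT 2iLAF over WT basal, 14 in B3GALT5-KO 2iLAF over B3GALT5-KO basal, 16 in B3GALT5-KO 2iLAF over WT 2iLAF and 3 in B3GALT5-KO 2iLAF over WT 5iLAF. With a pseudocount of 5 the counts were 1, 3, 4, 9, 9 and 1 in that order. In B3GALT5-KO basal over WT basal the count was 1 with median-ratio scaling, 1 with trimmed-mean scaling and 1 with FPKM, each time without HSPA1A, whose ratio then lay inside the limit. HSPA12B was counted in no comparison with a pseudocount of 5. Counts under the other alternatives were within 1.5 times these. Of 1518 ratios of the 37 named members recomputed under 7 alternatives, 36 crossed the limit of 1 and none of the counted ones changed sign. Over all genes in WT 2iLAF over WT basal, 40.2% of counted genes were higher as deposited and 53.5% after median-ratio scaling. The counted members were all lower under both, but were only 5 as deposited, the near-identical HSPA1A and HSPA1B among them. HSPH1 was no longer counted in that comparison after median-ratio or trimmed-mean scaling. Sums near level change direction with scaling, for example small heat shock genes in WT 2iLAF over WT basal, at 0.97 times as deposited and 1.10 after median-ratio scaling. Depth is unknown, so the precision of levels near 0 cannot be given.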
